A study of Mus musculus with 20 samples.

Results

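Macrophages are recognised in a tissue by a small set of transcripts, and 10 of these were followed here in whole mouse trachea: Adgre1, Csf1r, Cd68, Mpeg1, Ms4a7, Msr1, Marco, Lgals3, Gpnmb and Spp1. The genes were taken by name, with earlier results of these data known, and no threshold on their values was set. They were found on the array as every non-control probe that carried the gene's name, with Adgre1 under its older name Emr1. The 10 genes are among 27670 gene names on the array and had 18 of its 41174 probes, of which 16 were bright enough to be tested, among 26063 tested probes in all. Each gene is described by its brightest tested probe, and other probes are mentioned where they differ. The deposited files place these probes at chr17:55686649-55686708 for Adgre1, chr11:69746386-69746445 for Cd68, chr19:12145020-12145079 for Mpeg1, chr19:11001661-11002436 for Ms4a7 and chr18:61520169-61520228 for Csf1r. They give chr8:38396605-38398766 for Msr1, chr1:120342087-120342147 for Marco, chr14:42712515-42713331 for Lgals3, chr6:49016437-49016496 for Gpnmb and chr5:103631152-103631211 for Spp1, on a genome build that is not given in the sources used here.

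The study compared adult C57/Bl6 wild-type mice with mice lacking Myd88 (Myd88KO), the adaptor through which most Toll-like receptors and the interleukin-1 receptor signal. Tracheas came from uninjured mice (control) or from mice killed 3 days after 2% polidocanol, a detergent that strips the surface epithelium, was instilled into the airway (injury). The 4 groups were wild-type control, wild-type injury, Myd88KO control and Myd88KO injury, with 5 tracheas each and 1 one-colour Agilent array per trachea, and the labels give an age of 4 months for all. Myd88 was absent from every cell of the knockout mice, which were backcrossed to C57/Bl6JOlaHsd and bred as a colony separate from the wild-type mice, so that genotype and colony cannot be told apart. Arrays of the same replicate number shared a slide, and slides 2, 3 and 4 were scanned on 1 day and slides 1 and 5 on another. With 5 arrays a group, precision is limited throughout.

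Levels are given on the log2 scale as the background-corrected signal of a probe over the 75th percentile of its array, so that 0 means a signal equal to that percentile. Levels of different probes cannot be set against each other. A gene is said to have risen or fallen where limma, fitted to all tested probes, gave a Benjamini-Hochberg adjusted p under 0.01.

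Myd88 itself read 2.13, 1.95, 2.28, 1.94 and 2.08 on wild-type control arrays 1 to 5 and 2.00, 1.82, 2.04, 1.86 and 1.59 on Myd88KO control arrays. The injured wild-type arrays read 2.78, 2.67, 2.36, 2.65 and 2.80 and the injured Myd88KO arrays 1.54, 2.04, 2.09, 2.09 and 1.68. The difference of Myd88KO from wild-type was -0.77 ± 0.14 (SE) in injured tracheas, where the arrays did not overlap (adjusted p = 0.00824). It was -0.21 in uninjured tracheas and did not pass the test there (adjusted p = 1). Whether this probe lies in the deleted part of the gene is not given in the sources used here, so it is a weak check of the labels. The array labelled Myd88KO injury 5 stood apart from the other injured tracheas: the mean log2 level of 6 genes of secretory epithelium was 8.29 on it, inside the range of the uninjured arrays (7.68 to 8.51), against 5.03 to 7.01 on the other 9 injured arrays. The Myd88KO injury results are therefore also given without array 5. Array 5 was not the only uneven one of that group. On array 1 the mean of 6 genes of ciliated epithelium was 2.81, above all uninjured arrays (0.65 to 1.87).

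Tissue macrophages carry receptors for the growth factors that keep them alive, take up debris and microbes through scavenger receptors, and degrade what they take up in lysosomes. After injury, monocytes enter from the blood and mature into macrophages that clear dead cells and secrete proteins that act on matrix and on neighbouring cells. Adgre1 (an adhesion receptor of mouse macrophages) and Csf1r (the receptor for colony-stimulating factor 1 and interleukin-34) mark the lineage. Cd68 is a glycoprotein of the endosome and lysosome, Mpeg1 encodes perforin-2, a pore-forming protein of phagocytes, and Ms4a7 is a membrane-spanning protein found mainly on macrophages. Msr1 and Marco are class A scavenger receptors that bind modified lipoproteins and bacteria. Lgals3 encodes the lectin galectin-3, also made by epithelium, Gpnmb a membrane glycoprotein of lysosome-rich, lipid-handling cells, and Spp1 the secreted protein osteopontin.

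RefSeq promoter sequence (GRCm38.p6) was searched for 7 of the 10 genes, and the other 3 were not searched. It is shown for a lysosomal gene (Cd68) and a secreted one (Spp1) that rose together after injury, for the gene whose injured and uninjured arrays separated in both genotypes (Lgals3), and for the 1 gene that did not pass the test in wild-type tracheas (Marco). Each line holds the 250 bases before the transcription start, 5′ to 3′ on the gene's own strand. Capitals mark matches to 4 motifs sought on both strands, with N standing for any base. They are GAGGAA (the core bound by the myeloid factor PU.1 and other ETS proteins) and TGANTCA (a loose form of the AP-1 site). The others are TCANGTGA (a loose E-box pattern, not that of 1 family of factors) and TATAAA (the letters of the TATA box, at any position).
Cd68 (chr11:69666171-69666420, minus strand): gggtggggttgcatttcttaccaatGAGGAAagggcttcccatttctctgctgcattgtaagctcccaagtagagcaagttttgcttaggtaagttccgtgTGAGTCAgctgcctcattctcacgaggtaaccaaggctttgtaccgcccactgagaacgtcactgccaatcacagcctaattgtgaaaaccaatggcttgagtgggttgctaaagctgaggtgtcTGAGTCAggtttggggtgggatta
Spp1 (chr5:104434861-104435110, plus strand): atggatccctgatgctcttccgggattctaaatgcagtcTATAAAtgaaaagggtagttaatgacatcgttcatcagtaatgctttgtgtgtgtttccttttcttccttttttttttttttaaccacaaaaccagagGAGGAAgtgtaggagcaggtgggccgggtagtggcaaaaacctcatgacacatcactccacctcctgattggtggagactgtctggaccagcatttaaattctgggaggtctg
Lgals3 (chr14:47373610-47373859, plus strand): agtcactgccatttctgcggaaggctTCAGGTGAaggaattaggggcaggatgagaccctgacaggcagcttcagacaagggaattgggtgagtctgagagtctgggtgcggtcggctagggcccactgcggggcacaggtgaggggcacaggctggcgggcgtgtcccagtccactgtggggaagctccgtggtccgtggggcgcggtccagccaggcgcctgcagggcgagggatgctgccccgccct
Marco (chr1:120505025-120505274, minus strand): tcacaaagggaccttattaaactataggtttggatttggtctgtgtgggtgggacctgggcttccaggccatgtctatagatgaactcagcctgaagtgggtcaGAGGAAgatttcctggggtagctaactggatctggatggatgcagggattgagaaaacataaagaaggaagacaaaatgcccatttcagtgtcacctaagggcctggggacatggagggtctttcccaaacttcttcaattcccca

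The Cd68 sequence held 2 AP-1 matches, the nearer starting 24 bases before the start, and 1 GAGGAA. The Spp1 window shown held 1 GAGGAA and 1 TATAAA, the latter starting 211 bases before the start, and its other listed window held no match. Marco held 1 GAGGAA and Lgals3 1 TCANGTGA, which read TCAGGTGA. Of all 32851 promoter entries in the table, 23.3% held GAGGAA, 6.7% held TGANTCA, 3.5% held TCANGTGA and 12.4% held TATAAA. A match of these letters is a description and does not show that a factor binds. No match of the 4 motifs was found in the windows of Mpeg1 and Gpnmb, and Ms4a7 held 1 TGANTCA in 1 of its 2 listed windows.

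In wild-type tracheas the macrophage genes rose together 3 days after injury. All 10 were higher in the injured group and 9 of 10 passed the test, by between 2.27-fold for Lgals3 and 15.3-fold for Msr1. Among all tested probes, 3.24% were called higher in this comparison. The median log2 difference was 2.35 over the 10 genes and 0 over all tested probes. Injured and control arrays did not overlap for 8 of the 10 genes. How many of all tested probes separated in this way was not counted, so this count has no array-wide share beside it. The count was 5 when wild-type control array 2 or 4 or wild-type injury array 1 or 5 was left out, with Adgre1, Csf1r, Gpnmb and Spp1 no longer passing, and it was 4 by the one-way test named in the study's methods, applied to these 2 groups. With slides blocked in the fit it was 7, with Gpnmb and Spp1 no longer passing. All tested probes called in either direction were then 1548, against 1372 in the main fit. The corresponding numbers for the one-way test and the left-out arrays are not given here. Whether tracheas held more macrophages, each macrophage held more of these transcripts or other cells made more of them cannot be told apart in whole tissue.

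**Figure D1:**
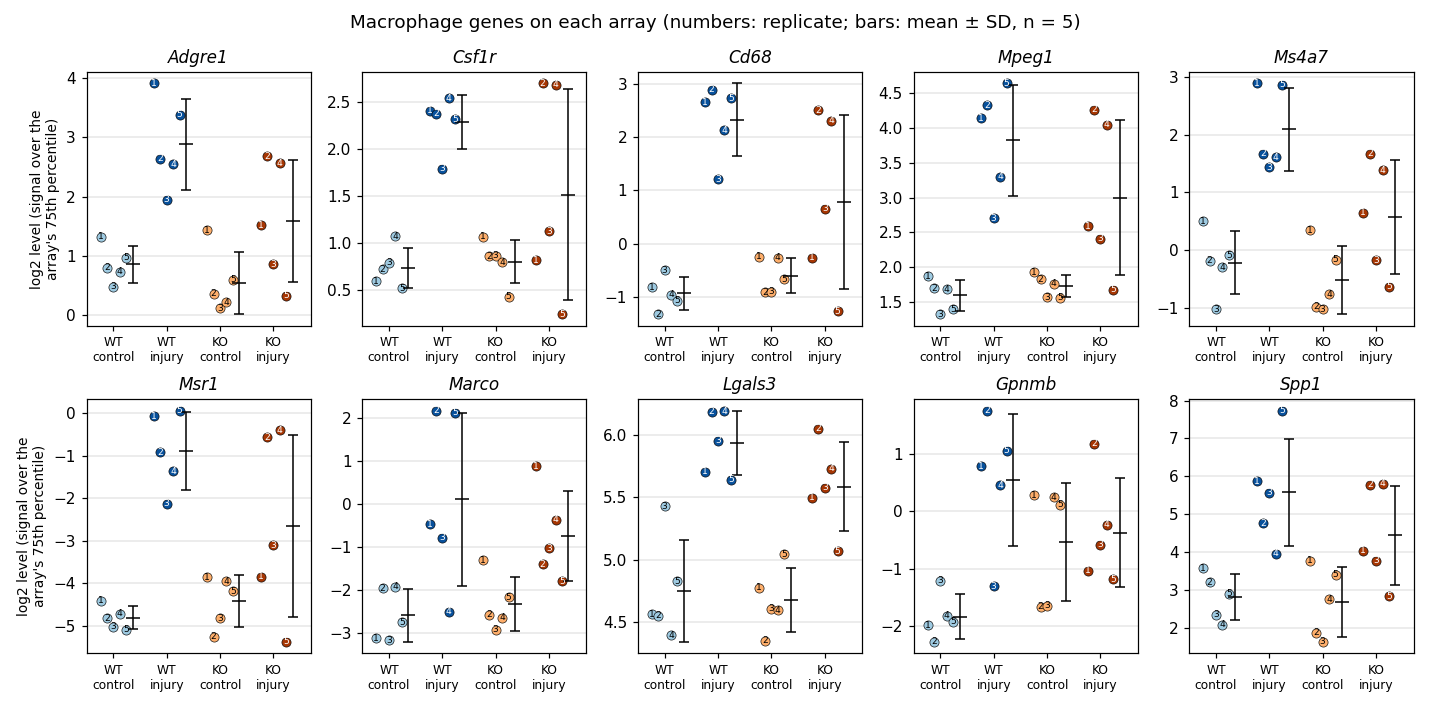
Log2 level (signal over the array's 75th percentile, y axis, scaled separately for each gene) of the 10 macrophage genes on every array, by group (x axis). Numbered points are replicates and black bars show the mean ± SD (n = 5). Wild-type injury arrays lie above wild-type control arrays for all genes but Marco and Gpnmb, and Myd88KO injury arrays 2 and 4 lie near the wild-type injury arrays while array 5 lies lowest for all 10.

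Both lineage receptors rose in wild-type tracheas. Adgre1 read 1.32, 0.80, 0.48, 0.73 and 0.96 on wild-type control arrays 1 to 5 and 3.91, 2.64, 1.95, 2.55 and 3.38 on wild-type injury arrays. Every injured array was above every control array, a rise of 2.03 ± 0.42 (SE) or 4.07-fold (adjusted p = 0.00408). A second, dimmer Adgre1 probe was not tested, being well above background on 6 arrays only: 4 of the wild-type injury group and Myd88KO injury arrays 2 and 4. Csf1r read 0.59, 0.72, 0.79, 1.07 and 0.52 in control and 2.41, 2.38, 1.79, 2.55 and 2.32 in injured wild-type tracheas. The groups did not overlap and the rise was 1.55 ± 0.36 (SE), 2.93-fold (adjusted p = 0.0077). Its 2 dimmer probes differed by 1.52 and 1.18 in the same direction without passing the test (adjusted p = 0.061 and 0.0757), so that the call for Csf1r rests on 1 probe of 3. Of these 2, the one that differed by 1.18 was well above background on 2 of 5 wild-type control arrays.

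In Myd88KO tracheas, Adgre1 read 1.43, 0.36, 0.11, 0.21 and 0.60 on control arrays 1 to 5 and 1.52, 2.68, 0.86, 2.56 and 0.33 on injury arrays. Arrays 2 and 4 reached the wild-type injury range, whereas arrays 3 and 5 lay within the control range. The difference of 1.05 ± 0.42 (SE) did not pass the test (adjusted p = 0.177). Csf1r read 1.07, 0.86, 0.86, 0.80 and 0.43 in control and 0.82, 2.70, 1.13, 2.69 and 0.24 in injured Myd88KO tracheas. On arrays 2 and 4 it was above all 5 injured wild-type arrays, and on arrays 1 and 5 it was not above the highest control. The difference was 0.71 ± 0.36 (SE) (adjusted p = 0.282).

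The lysosomal and phagocytic genes Cd68 and Mpeg1 and the membrane protein gene Ms4a7 rose without overlap in wild-type mice. Cd68 read -0.82, -1.33, -0.50, -0.97 and -1.07 in control and 2.66, 2.90, 1.21, 2.13 and 2.74 in injured wild-type tracheas. The lowest injured array lay well above the highest control, and the rise of 3.27 ± 0.54 (SE) was 9.66-fold (adjusted p = 0.000907, the smallest among the 10 genes). Mpeg1 read 1.87, 1.70, 1.33, 1.69 and 1.40 and then 4.13, 4.32, 2.70, 3.30 and 4.63. It rose by 2.22 ± 0.41 (SE), 4.66-fold, with no overlap (adjusted p = 0.00202). Its second probe gave 2.34 (adjusted p = 0.00241) but was well above background on 1 of 5 control arrays and on 5 of 5 injured arrays, so that the size of this difference is set largely against background. Ms4a7 read 0.50, -0.19, -1.02, -0.30 and -0.09 in control and 2.89, 1.67, 1.44, 1.61 and 2.87 in injured tracheas. This was a rise of 2.31 ± 0.43 (SE), 4.98-fold, without overlap (adjusted p = 0.00206), and a second probe gave 2.30 (adjusted p = 0.00222).

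The same genes varied widely among injured Myd88KO tracheas. Cd68 read -0.25, -0.92, -0.91, -0.27 and -0.67 on Myd88KO control arrays and -0.27, 2.52, 0.65, 2.32 and -1.27 on injury arrays 1 to 5. Arrays 2 and 4 lay in the wild-type injury range, array 3 between the groups, with array 1 within the control range and array 5 below it (difference 1.39, SE 0.54, adjusted p = 0.157). Mpeg1 read 1.93, 1.83, 1.57, 1.77 and 1.57 in control and 2.59, 4.26, 2.41, 4.04 and 1.68 in injured tracheas. Of the injury arrays, 4 were above every control array and array 5 was not (difference 1.26, SE 0.41, adjusted p = 0.095). Ms4a7 read 0.35, -0.98, -1.03, -0.77 and -0.17 in control and 0.65, 1.68, -0.18, 1.39 and -0.63 in injured tracheas, with arrays 3 and 5 inside the control range. Its difference was 1.10 ± 0.43 (SE) (adjusted p = 0.166).

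The 2 class A scavenger receptors did not follow the same arrays. Msr1 read -4.42, -4.83, -5.03, -4.72 and -5.10 in wild-type control tracheas, with only 3 of the 5 arrays well above background, and -0.08, -0.92, -2.13, -1.37 and 0.06 after injury, with all 5 arrays above background. The groups lay far apart, and the rise of 3.93 ± 0.70 (SE) was the largest of the 10 genes (15.3-fold, adjusted p = 0.00166). Its size depended on the processing. Over the other settings tried it ranged from 2.206 to 4.243, against 3.011 to 3.551 for Cd68. The rise of Msr1 was therefore not the largest of the 10 in every setting, although Msr1 kept its call. Its other probes differed by 3.46 (adjusted p = 0.00429) and by 3.37 (adjusted p = 0.0155). Each of them was well above background on 1 of 5 control arrays, so these sizes too are set largely against background. Marco read -3.11, -1.95, -3.16, -1.91 and -2.74 in control and -0.46, 2.17, -0.78, -2.50 and 2.12 in injured wild-type tracheas. Injury arrays 2 and 5 stood far above the controls, whereas array 4 lay within the control range. The difference of 2.69 ± 0.71 (SE) therefore had a wide error and did not pass the test (adjusted p = 0.0169). Without wild-type injury array 4 it was 3.34 and passed it (adjusted p = 0.00289).

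After injury of Myd88KO tracheas, Msr1 read -3.85, -0.57, -3.10, -0.40 and -5.38, against -3.86, -5.26, -4.83, -3.96 and -4.19 in their controls. Arrays 2 and 4 matched the wild-type injury range and array 5 was below every control array (difference 1.76, SE 0.70, adjusted p = 0.176). Marco read -1.30, -2.57, -2.91, -2.64 and -2.16 in control and 0.88, -1.40, -1.03, -0.36 and -1.79 in injured Myd88KO tracheas. Here array 1 was the highest, so that Marco was the only 1 of the 10 genes whose 2 highest injured Myd88KO arrays were not arrays 2 and 4. The Marco difference was 1.58 ± 0.71 (SE) (adjusted p = 0.226).

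Of the remaining genes, Lgals3 was already bright in uninjured trachea. It read 4.56, 4.55, 5.43, 4.39 and 4.83 in control and 5.70, 6.19, 5.95, 6.19 and 5.64 in injured wild-type tracheas. The groups did not overlap, and the rise of 1.18 ± 0.21 (SE), 2.27-fold, was the smallest of the 9 that passed the test (adjusted p = 0.00143). In Myd88KO tracheas it read 4.78, 4.35, 4.61, 4.59 and 5.04 in control and 5.50, 6.05, 5.57, 5.73 and 5.07 after injury. It was the only gene of the 10 whose injured and control Myd88KO arrays did not overlap, by a margin between 5.04 and 5.07, and its difference of 0.91 ± 0.21 (SE) came nearest to the threshold in that genotype (adjusted p = 0.0247).

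Gpnmb read -1.99, -2.27, -1.21, -1.82 and -1.93 in control and 0.78, 1.75, -1.31, 0.44 and 1.05 in injured wild-type tracheas. It rose by 2.38 ± 0.54 (SE), 5.22-fold (adjusted p = 0.00677), although injury array 3 lay inside the control range. The call was lost when slides were blocked (adjusted p = 0.0107). A second Gpnmb probe was well above background on 0 arrays and was not tested. In Myd88KO tracheas Gpnmb read 0.28, -1.67, -1.65, 0.24 and 0.11 in control and -1.04, 1.17, -0.58, -0.24 and -1.19 after injury. Control arrays 1, 4 and 5 were above all wild-type control arrays and above 4 of the 5 injured Myd88KO arrays. The injury difference in Myd88KO was 0.16 ± 0.54 (SE) (adjusted p = 0.903), the smallest of the 10 genes.

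Spp1 read 3.58, 3.20, 2.34, 2.08 and 2.89 in control and 5.87, 4.76, 5.57, 3.96 and 7.74 in injured wild-type tracheas. It rose by 2.76 ± 0.65 (SE), 6.77-fold, with array 5 the highest and no overlap (adjusted p = 0.00861). When slides were blocked this call was lost too (adjusted p = 0.0142). In Myd88KO tracheas it read 3.77, 1.87, 1.64, 2.75 and 3.40 in control and 4.03, 5.78, 3.77, 5.80 and 2.83 after injury. Arrays 2 and 4 were again the highest, and arrays 3 and 5 did not exceed the highest control (difference 1.76, SE 0.65, adjusted p = 0.142).

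**Figure D2:**
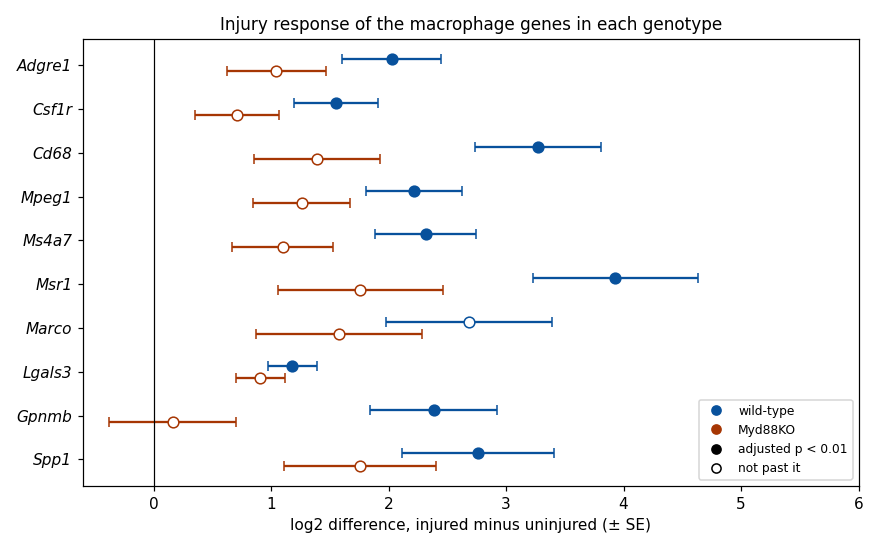
Log2 difference between injured and control tracheas (x axis, ± SE from the limma fit, 5 arrays per group) for the 10 macrophage genes in wild-type (blue) and Myd88KO (orange) mice. Filled points passed an adjusted p of 0.01: 9 of 10 in wild-type and 0 of 10 in Myd88KO, where all 10 differences were above 0 and Gpnmb was nearest to it at 0.16.

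In Myd88KO tracheas as a group, all 10 genes were higher after injury and 0 of 10 passed the limma test, in a comparison in which 0.376% of all tested probes were called in either direction. At an unadjusted p under 0.05 there were 8 of the 10 genes, against 5077 of the 26063 tested probes, and the one-way test named in the study's methods also called 0. The count depended on how arrays were weighted. With array weights, which were lowest for Myd88KO injury arrays 1 and 5, 5 of the 10 genes passed: Cd68, Lgals3, Mpeg1, Msr1 and Spp1, by 1.11 for Lgals3 to 2.84 for Msr1, among 2089 tested probes called. The median difference was 1.18 over the genes and -0.07 over all tested probes. The SD among injured arrays was larger in Myd88KO than in wild-type for 7 of the 10 genes. The share of all tested probes for which this held was not computed, so it is not shown to be particular to these genes.

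The injured Myd88KO tracheas were uneven. On array 2, 9 of the 10 genes were above every Myd88KO control array and 10 of 10 were at or above the lowest wild-type injury array, and on array 4 these counts were 9 and 9. Array 1 had 7 genes above the controls and 3 at or above the lowest wild-type injury array, and array 3 had 6 and 2. On array 5 only Lgals3 was above the controls, and all 10 genes were at their lowest in the group. Without array 5 the Myd88KO difference of Lgals3 was 1.04 and passed the test (adjusted p = 0.00357), that of Cd68 was 1.91 (adjusted p = 0.0119) and that of Msr1 was 2.44 (adjusted p = 0.0142). The number of all tested probes called in this comparison went from 98 to 1075.

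The Myd88KO differences were not alike on the 2 scan days. On the day of slides 2, 3 and 4, all 10 genes were higher after injury in Myd88KO, with a median difference of 1.82, and the median was 2.02 in wild-type. On the day of slides 1 and 5, 3 of the 10 genes were higher in Myd88KO, with a median of -0.12, and all 10 were higher in wild-type, with a median of 2.81. For Cd68 the Myd88KO difference was 2.53 on the first of these days and -0.31 on the other. For Msr1 these differences were 3.33 and -0.59, and for Marco they were 1.78 and 1.28. Over the 10 genes, the median level above the mean of all 5 Myd88KO control arrays was 2.16 on array 2, 1.99 on array 4 and 0.79 on array 3 of the first day, and 0.84 on array 1 and -0.16 on array 5 of the other. Array 3 thus lay close to array 1 and below both other arrays of its own day. With scan day as a term in the fit, 9 of the 10 genes passed in wild-type and 0 in Myd88KO.

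Comparing genotypes directly, the injured Myd88KO group was below the injured wild-type group for all 10 genes, with a median log2 difference of -1.03. None of the 10 passed the limma test, where 0.38% of all tested probes were called in either direction. At an unadjusted p under 0.05 there were 5 of the 10 genes, against 3264 tested probes, and the one-way test also called 0. Ms4a7 came nearest, at -1.51 ± 0.43 (SE) (adjusted p = 0.133), followed by Adgre1 at -1.30 ± 0.42 (SE) (adjusted p = 0.196) and Cd68 at -1.54 ± 0.54 (SE) (adjusted p = 0.229). The differences were -1.77 for Msr1, -1.14 for Spp1, -0.92 for Gpnmb, -0.85 for Marco, -0.82 for Mpeg1, -0.77 for Csf1r and -0.35 for Lgals3. Within slides 2, 3 and 4 the median over the 10 genes was -0.21, with 3 genes higher in Myd88KO, and within slides 1 and 5 it was -2.49, with 0 genes higher. Without Myd88KO injury array 5, Ms4a7 was at -1.21 (adjusted p = 0.318), Cd68 at -1.03 (adjusted p = 0.456), Adgre1 at -0.98 (adjusted p = 0.421) and Msr1 at -1.09 (adjusted p = 0.548). Csf1r was then at -0.46, Mpeg1 at -0.49, Lgals3 at -0.22, Spp1 at -0.73, Gpnmb at -0.71 and Marco at -0.59, and 0 of 10 passed.

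Tested as a difference between the 2 injury responses, the Myd88KO response was the smaller for all 10 genes and 0 of 10 passed, in a comparison in which 0% of all tested probes were called. At an unadjusted p under 0.05 there were 3 of the 10 genes, against 2703 tested probes, and an F test of the interaction term for each gene on its own called 0 as well. These 3 were Gpnmb at -2.22 ± 0.76 (SE), Cd68 at -1.88 ± 0.76 (SE) and Msr1 at -2.17 ± 1.00 (SE), with adjusted p of 0.391, 0.423 and 0.471. Without Myd88KO injury array 5 they were at -2.02, -1.36 and -1.49 (adjusted p = 0.423, 0.466 and 0.531), and 0 of the 10 genes and 3 of all tested probes passed. The passing of 9 genes in wild-type and of none in Myd88KO is therefore not shown to be a difference between the genotypes. Within slides 2, 3 and 4 the median difference between responses was -0.06, and within slides 1 and 5 it was -2.67. The comparisons share arrays, so they are not independent of each other.

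Before injury the genotypes were close for most of these genes. None of the 10 passed the test, where 0.384% of all tested probes were called in either direction, and the one-way test also called 0. At an unadjusted p under 0.05 there was 1 of the 10 genes, against 1457 tested probes, and it was Gpnmb. Gpnmb was higher in Myd88KO by 1.30 ± 0.54 (SE) (unadjusted p = 0.0253, adjusted p = 0.725), through the 3 high control arrays described above. The other differences were 0.40 for Msr1, 0.34 for Cd68, 0.26 for Marco, 0.14 for Mpeg1, 0.06 for Csf1r, -0.08 for Lgals3, -0.13 for Spp1, -0.30 for Ms4a7 and -0.32 for Adgre1.

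Across the 20 arrays the 10 genes moved in step to different degrees. Over their 45 pairs, Pearson's r ranged from 0.55 for Csf1r with Marco to 0.98 for Adgre1 with Ms4a7, with a median of 0.80. These values include the differences between groups. With the group means removed, r ranged from -0.13 for Marco with Lgals3 to 0.96 for Adgre1 with Ms4a7, with a median of 0.59. With group means removed, Cd68 with Msr1 gave 0.95 and Mpeg1 with Msr1 gave 0.91, whereas the values for Lgals3 with Ms4a7 (0.095) and Marco with Csf1r (0.033) were near 0. All pairs share their arrays and slides, and these values are descriptions.

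For each gene but Spp1, the non-member probe most like it over the 20 arrays, out of 25826 probes, is given. These were Ms4a6b for Adgre1 (r = 0.986), Ms4a6d for Cd68 (r = 0.986), Myo1f, an unconventional myosin of leukocytes, for Csf1r (r = 0.977) and Arhgap9 for Mpeg1 (r = 0.982). Susd3 was most like Ms4a7 (r = 0.989) and Lilra6, a leukocyte immunoglobulin-like receptor, most like Msr1 (r = 0.988). Lgals3 stood nearest to Cdc20, an activator of the anaphase-promoting complex in mitosis (r = 0.969). Gpnmb was nearest to Itgax, the CD11c integrin chain (r = 0.881), and Marco to Treml4 (r = 0.847), the lowest of these values. Each r is the highest found among all the probes compared, and it includes the differences between groups. With group means removed, r was 0.678 for Marco, 0.782 for Gpnmb and 0.889 for Lgals3. For the other genes given it was 0.957 (Csf1r) to 0.982 (Ms4a7).

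Some other macrophage genes, listed apart from the 10, also rose in wild-type tracheas. Of 16 tested identity genes, 9 rose and 0 fell, where 3.24% of all tested probes were called higher. Differences were above 0 for 14 of the 16 and ran from -0.71 to 3.60, with a median of 1.67. The 2 largest were Fcgr1, the high-affinity IgG receptor, at 3.60 (adjusted p = 0.000791) and Siglec1, the sialoadhesin of macrophages, at 3.15 (adjusted p = 0.0014). Among 7 tested relatives of Ms4a7, 5 rose, led by Ms4a6d at 3.79 (adjusted p = 0.00179) and Ms4a4c at 2.85 (adjusted p = 0.000679). Of 15 tested genes of lysosomes and lipid handling, 4 rose, with Trem2, a lipid-sensing receptor of macrophages, at 3.61 (adjusted p = 0.00146) and Lipa, the lysosomal acid lipase, at 1.26 (adjusted p = 0.00333) the largest. In Myd88KO tracheas 0 genes of these 3 lists passed in either direction, with median differences of 0.58, 1.09 and 0.09. Only 0.376% of all tested probes were called in that comparison, so a count of 0 in short lists says little.

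Other scavenger receptors mostly did not move with Msr1. Of 13 tested, 2 rose and 0 fell in wild-type tracheas, where 3.24% of all tested probes were called higher. Differences were above 0 for 9 of the 13 and ran from -1.27 to 1.68, with a median of 0.35. The 2 that rose were Stab1, the stabilin-1 receptor of macrophages and endothelium, at 1.68 (adjusted p = 0.000777), and Scarb1, a receptor for high-density lipoprotein, at 0.76 (adjusted p = 0.00707). Of 7 other galectins 1 rose, Lgals1 at 1.12 (adjusted p = 0.00516). None of 7 integrin and CD44 receptors for osteopontin passed the limma test, with differences of 0.12 to 1.03. In Myd88KO tracheas 0 genes of these lists passed, where 0.376% of all tested probes were called. The median differences were -0.06 for the receptors, -0.02 for the galectins and -0.06 for the osteopontin receptors.

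Growth factor and recruitment genes for monocytes were also measured. Of 8 tested, 5 rose and 0 fell in wild-type tracheas, where 3.24% of all tested probes were called higher. The largest were Csf3r, the receptor for granulocyte colony-stimulating factor, which neutrophils carry, at 4.05 (adjusted p = 0.0038) and Ccl7, a monocyte-attracting chemokine, at 3.59 (adjusted p = 0.000465). In Myd88KO tracheas 0 of 8 passed, with a median difference of 1.10, where 0.376% of all tested probes were called. In the comparisons between genotypes and between responses, 0 genes of any of the lists described here passed. The shares of all tested probes called there were 0.384% (uninjured), 0.38% (injured) and 0% (responses).

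Like most of the macrophage genes, a mean over neutrophil genes was higher on every wild-type injury array than on every wild-type control array. The mean log2 level of 6 tested neutrophil genes was 1.43, -0.90, -0.19, -0.45 and -0.65 on wild-type control arrays 1 to 5 and 2.63, 1.61, 2.46, 1.57 and 4.09 on wild-type injury arrays. It was -0.65, -1.54, -2.25, -1.65 and -0.81 on Myd88KO control arrays and -0.69, 2.04, -0.97, 2.41 and -1.85 on Myd88KO injury arrays, so that arrays 2 and 4 were again the high ones. The summed signal of the 6 genes, on the log2 scale, was 8.44 to 9.26, 8.91 to 9.36, 8.79 to 9.49 and 8.54 to 9.44 in these 4 groups. These sums overlapped between all groups, unlike the mean. On wild-type control array 1 the neutrophil mean (1.43) came near the lowest wild-type injury array (1.57). The mean of the 10 macrophage genes on that control array was 0.21, against at least 1.64 on wild-type injury arrays. Of the 6 genes 1 rose in wild-type, Mmp9 at 2.22 (adjusted p = 0.00419), where 3.24% of all tested probes were called higher. The granule genes Camp, Elane, Mmp8 and Ngp were on the array but not bright enough to be tested. The part of neutrophils in the results was not tested.

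The secretory epithelium list ran the opposite way. Its mean log2 level over 6 genes was 5.10, 5.44, 5.41, 5.60 and 5.03 on wild-type injury arrays 1 to 5 and 7.01, 5.20, 6.15, 5.37 and 8.29 on Myd88KO injury arrays, against 7.68 to 8.51 in wild-type control and 7.97 to 8.47 in Myd88KO control tracheas. Arrays 2 and 4, on which the macrophage genes were highest among the injured Myd88KO tracheas, were the 2 lowest of that group for this list. Of the 6 genes 3 fell in wild-type tracheas, and Scgb1a1, the main secretoglobin of club cells, fell by 7.91 (adjusted p = 1e-05) and Scgb3a2 fell by 5.77 (adjusted p = 0.000394). Among all tested probes, 2.03% were called lower in wild-type injury. In Myd88KO tracheas 2 of the 6 fell, where 0.242% of all tested probes were called lower. Over 5 proliferation genes the mean was 0.88, 2.04, 1.06, 2.18 and -1.21 on Myd88KO injury arrays, against 1.28 to 2.31 on wild-type injury arrays, -1.25 to 0.85 on wild-type control arrays and -1.77 to -0.73 on Myd88KO control arrays. Of these proliferation genes, 3 rose in wild-type tracheas, where 3.24% of all tested probes were called higher. The largest rises were those of Plk1 at 2.96 (adjusted p = 0.00208) and Ccnb1 at 2.77 (adjusted p = 0.00235). How far the unevenness of the macrophage genes follows that of the injury was not tested.

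**Figure D3:**
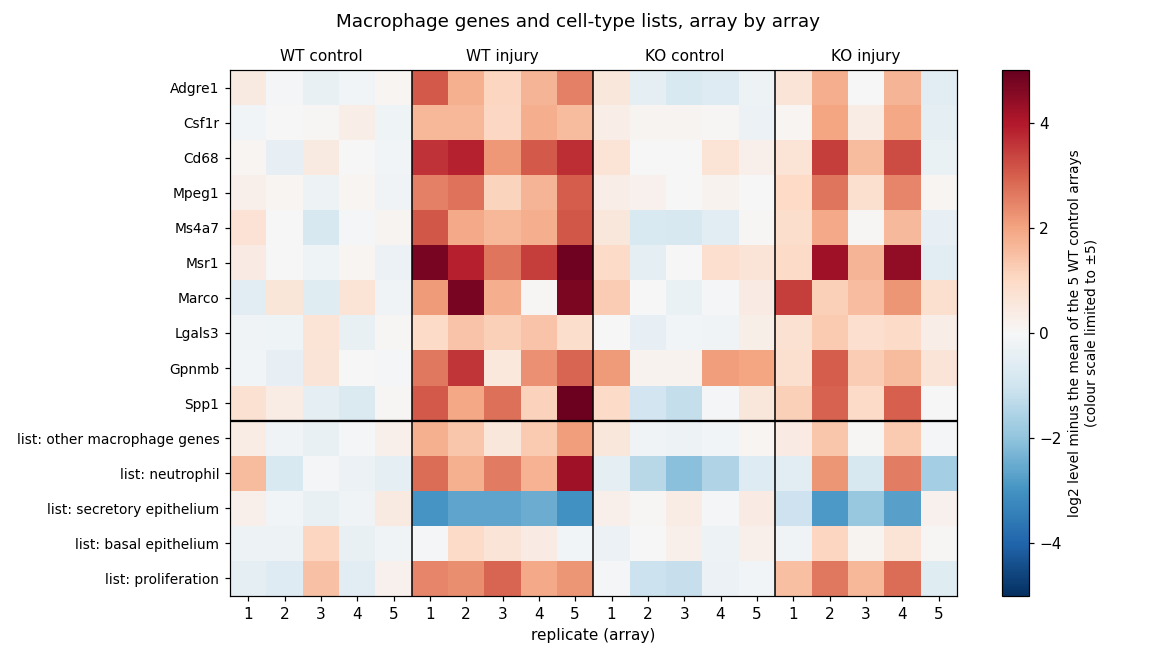
Log2 level minus the mean of the 5 wild-type control arrays (colour, limited to ±5) for the 10 macrophage genes (upper rows) and for the mean of 5 gene lists (lower rows) on each of the 20 arrays (columns, by group and replicate). Among Myd88KO injury arrays, 2 and 4 are red for most macrophage genes, neutrophil and proliferation genes and blue for secretory genes, while array 5 resembles the control arrays.

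Lists for cells that could also carry some of these transcripts were checked in wild-type injury. Of 5 tested dendritic cell genes 2 rose, Ccr7, a homing receptor of mature dendritic cells, at 2.47 (adjusted p = 0.00116) and Itgax at 1.58 (adjusted p = 0.00617). Among all tested probes, 3.24% were called higher there. None of 9 T and NK cell genes, 2 B cell genes, 5 mast cell genes, 5 basal epithelial genes, 5 cartilage genes, 4 adipocyte genes or 5 striated muscle genes passed the limma test in either direction. Of 6 ciliated cell genes 1 fell, where 2.03% of all tested probes were called lower: Dnah5, an axonemal dynein, fell by 3.94 (adjusted p = 0.00319). The mean log2 level of these 6 was 2.81, -1.17, 0.83, -2.03 and 1.49 on Myd88KO injury arrays 1 to 5. It was 0.65 to 1.87 on wild-type control arrays, 0.78 to 1.34 on Myd88KO control arrays and -2.06 to 0.34 on wild-type injury arrays. In Myd88KO injury 0 genes of these lists passed, where 0.376% of all tested probes were called.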

How the data were processed

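RNA of 20 whole tracheas was hybridised to one-colour Agilent arrays by the authors, and the Feature Extraction software subtracted background and spatial trend. The deposited values are intensities, not scaled between arrays. The deposited value table holds the same intensities (ratio to scanner values 0.995 to 1.005). Control spots (1639 of 45018) and 1960 outlier-flagged spot values were left out, and spots of 1 probe were averaged. Here the log2 intensity was taken minus the array's 75th percentile, which was 495 to 972 in intensity units. Between 57.5% and 67.8% of spots were well above background on an array. Probes well above background on at least 10 of 20 arrays were tested in R 4.3.3 with limma 3.58.1 (lmFit, eBayes, all groups in 1 fit), with a Benjamini-Hochberg adjusted p under 0.01 as the threshold. The pipeline was tested on simulated data.

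Groups and replicate numbers came from the sample titles. Same-numbered arrays shared a slide, and over 30 pairs of same-numbered arrays the correlation of deviations from group means was -0.26 to 0.48 (23 pairs over 0.1), so the number was treated as a slide, and whether it also pairs mice is not given in the sources used here. The genes named are the 10 macrophage genes, Myd88, the probe most like each gene, and at most 2 called genes of each list with the largest difference. The probe most like Spp1 is not reported here. The genes and lists were chosen with earlier results of these data known. Promoters came from RefSeq (GRCm38.p6), and array probes were named through the table of the same assembly, used for names only.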

Additional observations from a re-analysis of the deposited data

How the results depend on the processing

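In wild-type injury, 9 of the 10 macrophage genes passed the test. With the replicate block (the slide as a term) 7 passed, with Gpnmb and Spp1 lost, and in the other comparisons the block left the count at 0. The one-way test of the methods gave 4 in wild-type injury, namely Cd68, Csf1r, Mpeg1 and Msr1. Other settings (normexp background, quantile or median scaling, the deposited value table, scan day, array weights, filters on dim probes, any probe of a gene, only the groups compared) gave 6 to 9. Leaving out 1 array gave 5 to 9. The number of all tested probes called in wild-type injury also changed, from 1372 to 1548 with the block and 2630 with array weights. For the other settings it is not given here, so their counts cannot be set against the whole array. In Myd88KO injury 0 passed, with array weights 5 (Cd68, Lgals3, Mpeg1, Msr1 and Spp1), and leaving out 1 array gave 0 to 1, the 1 being Lgals3 without Myd88KO injury array 5. The weights were lowest for Myd88KO injury arrays 1 (0.31) and 5 (0.313). Fitting only the groups compared gives no separate value for the difference between responses, and Msr1 has no value where probes had to be well above background on all 20 arrays.

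Of 1535 recomputed gene differences, 10 changed sign, all of them small and none past the threshold in any of these settings. Of these, 9 came from leaving out 1 array. Gpnmb in Myd88KO injury then ranged from -0.224 (without injury array 2) to 0.366, and was also below 0 without Myd88KO control array 2 or 3 (-0.12 and -0.115). Between uninjured genotypes, Csf1r ranged from -0.002 to 0.158, Lgals3 from -0.171 to 0.091 and Spp1 from -0.405 to 0.129. With array weights Marco was -0.031 between uninjured genotypes. The cause was not tested. A further 51 lost the threshold, all in wild-type injury, most often Spp1, Csf1r and Gpnmb, and 8 gained it. Cd68, Mpeg1 and Msr1 kept their wild-type call in every setting that gave a value, although the Msr1 difference ranged from 2.206 to 4.243.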
